A study of Mus musculus with 6 samples.

Results

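The 10 genes described here belong to extracellular adenosine, prostaglandin E2 and cyclic AMP (cAMP) signalling. They were followed in regulatory T cells (Tregs) with and without HDAC11, a histone deacetylase. They were taken by gene symbol, as every probe set that the platform annotation assigns to that symbol alone. Of the 10 genes, 7 were measured, by 13 of the 22626 probe sets tested: Entpd1, Nt5e, Ptger2, Ptger3, Ptger4, Pde4b and Crem. No probe set carried Adora2a, Pde3b or Pde4d as its only symbol, and these 3 genes were not analysed here. The RNA came from CD4+CD25+ cells separated with magnetic beads and was hybridised to 6 Affymetrix Mouse430A arrays. WT cells, on 3 arrays, came from wild-type C57BL6 mice, and HDAC11-/- cells, on the other 3, from mice with a floxed Hdac11 gene and Cre recombinase under Foxp3 (fl-HDAC11/Foxp3cre), which were backcrossed onto C57BL/6. The study used male mice at 6 to 8 weeks of age unless it stated otherwise. Cre, a fusion with YFP, acts in cells that express Foxp3, so other cells in a bead-separated fraction keep Hdac11. The WT label names neither Cre nor a floxed allele, so the presence of Cre and the loss of HDAC11 cannot be told apart here.

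Tregs degrade extracellular ATP to adenosine on their surface. CD39, encoded by Entpd1, removes phosphates from ATP, and CD73, encoded by Nt5e, makes adenosine from AMP. Adenosine acts on the receptor encoded by Adora2a, and prostaglandin E2 on the receptors EP2 (Ptger2), EP3 (Ptger3) and EP4 (Ptger4). The Adora2a receptor, EP2 and EP4 couple to the stimulatory G protein and raise cAMP, whereas EP3 mostly couples to the inhibitory one and lowers it. Phosphodiesterases such as PDE3B, PDE4B and PDE4D degrade cAMP. In the nucleus, cAMP acts through CREB and its relative CREM, which bind the cAMP response element. The Crem gene also encodes ICER, a short repressor that cAMP itself induces from an internal promoter.

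To show the regulatory sequence next to the expression data, the 250 bases before each annotated start were read from RefSeq (GRCm38.p6) for the members listed there. The search was for the cAMP response element, TGACGTCA, which reads the same on both strands, and for its core, TGACG or, on the other strand, CGTCA. Every full element also contains the core. The table held 11 such windows from 7 of the 10 members. It had no entry for Adora2a, Pde3b or Crem. None of the 11 windows held the full element, which was found in 1.55% of 32851 mouse windows of the same length, and 3 held the core, which was found in 17.8%. The core (capitals) is shown in its surroundings for Pde4b, whose probe sets were higher in HDAC11-/- Tregs by the adjusted p, and for both Entpd1 starts. A match describes letters in these windows and is not evidence of binding.
Pde4b (chr4:102421481-102421554, + strand): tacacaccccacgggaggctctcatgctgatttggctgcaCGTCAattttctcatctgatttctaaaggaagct
Entpd1, first start (chr19:40612191-40612275, + strand): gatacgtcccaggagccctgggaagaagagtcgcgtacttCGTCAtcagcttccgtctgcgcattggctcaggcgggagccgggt
Entpd1, second start (chr19:40659547-40659631, + strand): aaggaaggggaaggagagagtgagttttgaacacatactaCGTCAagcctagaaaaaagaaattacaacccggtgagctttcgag

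The core ended 29 bases before the annotated start in Pde4b, and 130 and 178 bases before it in Entpd1. The other 3 windows of Pde4b, which has several starts, did not hold it. The windows of Ptger2 and Ptger4 are given whole, since these genes encode the 2 receptors of the same coupling and Ptger2 was called while Ptger4 was not. Both lack the core, and their GC content was 38% for Ptger2 and 66.8% for Ptger4.
Ptger2 (chr14:44987861-44988110, + strand): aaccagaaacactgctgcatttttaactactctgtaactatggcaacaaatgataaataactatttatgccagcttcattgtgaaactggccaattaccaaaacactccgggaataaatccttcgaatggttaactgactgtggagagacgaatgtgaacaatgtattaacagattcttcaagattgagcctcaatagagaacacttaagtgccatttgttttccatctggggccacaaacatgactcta
Ptger4 (chr15:5244188-5244437, - strand): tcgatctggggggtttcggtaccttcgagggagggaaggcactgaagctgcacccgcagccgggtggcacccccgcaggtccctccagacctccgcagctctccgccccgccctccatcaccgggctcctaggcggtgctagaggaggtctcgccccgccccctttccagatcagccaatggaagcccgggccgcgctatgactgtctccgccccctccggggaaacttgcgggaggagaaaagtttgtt

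The authors deposited log2 expression values normalised by robust multiarray average (RMA), on which a difference of 1 is 2-fold. The 6 arrays were alike within genotype (correlation 0.997 to 0.999) and less so between genotypes (0.985 to 0.988). The gene targeted by the deletion, Hdac11, was at 6.31, 6.36 and 6.53 in WT and 6.36, 6.28 and 6.22 in HDAC11-/- Tregs in its brighter probe set (adjusted p = 0.222 from limma). The sources used here do not place its probes relative to the floxed part, and this value checks neither the deletion nor the labels. For the deletion itself the paper refers to separate qPCR of HDAC11 in Tregs and effector T cells, without values in its text. The T cell genes Cd3d, Cd3e, Cd3g and Cd4 and the Treg genes Il2ra, Ctla4, Ikzf2 and Tnfrsf18 were above background on all arrays. Foxp3, the defining gene of Tregs, lay at background on all 6 in its probe set 1420765_a_at. Whether this probe set detects the Foxp3 transcript was not tested. By qPCR the paper reports Foxp3 RNA in Tregs, at a higher level in freshly isolated HDAC11-/- cells. Background was set for each array at its highest bacterial control probe set, at 5.06 to 5.48. The labels call the samples independent but do not tie each to a mouse of its own, so p-values here speak to the spread among these arrays, which may be technical.

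Among these signalling genes Ptger2 was lower and Crem higher in HDAC11-/- Tregs, and Ptger3 was called higher at or near background. A probe set was called when its Benjamini-Hochberg adjusted p from limma was under 0.05 and its difference at least 1.5-fold. By this rule 2 of the 13 probe sets were called higher in HDAC11-/- Tregs (Crem and Ptger3), against 3.87% of all probe sets, and 1 was called lower (Ptger2), against 5.03%. By the adjusted p alone, 6 were higher and 4 lower, against 23.2% and 22.4% of all probe sets. The arrays of the 2 genotypes did not overlap in 11 of the 13, against 56.7% of all. With 1 probe set a gene, the brightest, 2 of the 7 genes were called higher and 1 lower, against 3.46% and 3.72% of all genes, and their median log2 fold change was 0.12 against -0.04 over 12393 genes. Counts this small do not set these genes apart from the rest of the array. Of the 13 probe sets, 11 were above background on at least 1 array.

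**Figure D1:**
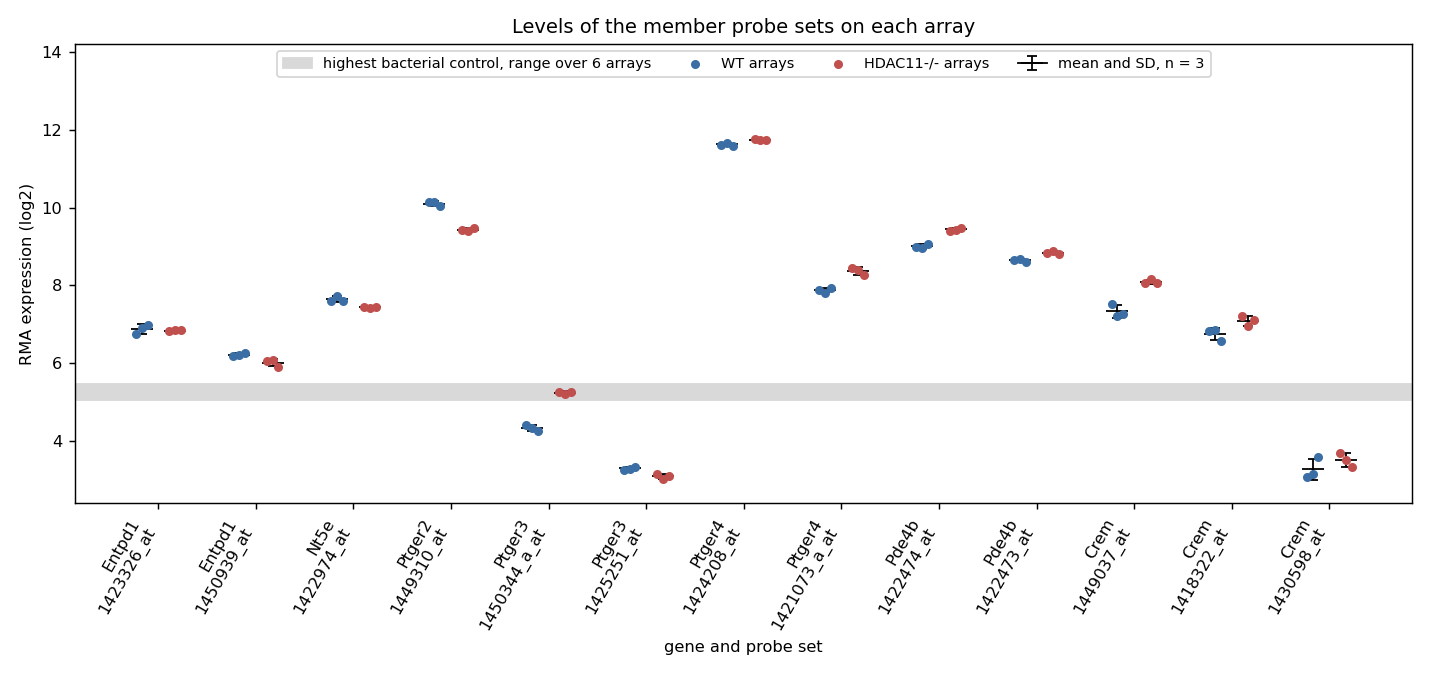
RMA expression (log2) of the 13 probe sets on each array, with blue points for the 3 WT arrays, red points for the 3 HDAC11-/- arrays, and bars for the mean and SD of 3 arrays. The grey band is the range of the highest bacterial control over the 6 arrays (5.06 to 5.48). Ptger2 is lower and Crem 1449037_at higher on every HDAC11-/- array, and a probe set each of Ptger3 and Crem lies wholly under the band. Heights of different probe sets cannot be compared with each other.

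The 2 ectoenzymes that make adenosine differed little between genotypes, and neither was called. Nt5e was at 7.61, 7.74 and 7.59 in WT and at 7.44, 7.41 and 7.45 in HDAC11-/- Tregs. All 3 HDAC11-/- arrays were below the lowest WT array, by a small margin. The log2 difference of -0.21 (SE 0.05, 95% interval -0.34 to -0.08, adjusted p = 0.0196 from limma) was 1.16-fold and so under the fold threshold. The adjusted p rose to 0.0553, 0.0688 and 0.0507 without HDAC11-/- replicates 1, 2 and 3, and the false discovery rate of SAM, the test named in the methods, was 0.0785.

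Entpd1 has 2 probe sets. The brighter, 1423326_at, was at 6.74, 6.91 and 6.99 in WT and at 6.82, 6.85 and 6.85 in HDAC11-/- Tregs. These arrays overlap, and the log2 fold change was -0.04 with a 95% interval from -0.21 to 0.13 (adjusted p = 0.659 from limma). A fall or a rise past 1.5-fold thus lies outside the interval of this probe set. The second, 1450939_at, was at 6.19, 6.22 and 6.26 in WT and at 6.07, 6.07 and 5.90 in HDAC11-/- Tregs, without overlap. Its log2 fold change was -0.21 (SE 0.06, adjusted p = 0.0305), and the adjusted p lay between 0.0466 and 0.0779 when single arrays were left out. It was past 0.05 without any of the WT replicates 1, 2 and 3 (0.0513, 0.0651 and 0.0779) and without HDAC11-/- replicate 3 (0.0765). SAM gave this probe set a false discovery rate of 0.0785.

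Of the receptors that raise cAMP, Ptger2 fell, and Ptger4 was called in neither of its probe sets. Ptger2, which encodes EP2, has 1 probe set. It was at 10.14, 10.14 and 10.03 in WT and at 9.43, 9.40 and 9.47 in HDAC11-/- Tregs. The gap between the genotypes was several times the spread within either. Ptger2 was 1.59-fold lower, a log2 difference of -0.67 (SE 0.05, 95% interval -0.79 to -0.54, adjusted p = 0.000169 from limma). The interval includes values under the fold threshold, but the call was kept when each array was left out in turn, with log2 fold changes from -0.70 to -0.65.

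Ptger4 encodes EP4 and has 2 probe sets that differ in size of response. The brighter, 1424208_at, was at 11.61, 11.66 and 11.59 in WT and at 11.77, 11.72 and 11.73 in HDAC11-/- Tregs, a log2 difference of 0.12 (95% interval 0.02 to 0.23, adjusted p = 0.0617 from limma). The other, 1421073_a_at, was at 7.87, 7.81 and 7.93 in WT and at 8.45, 8.40 and 8.27 in HDAC11-/- Tregs, a log2 difference of 0.50 (95% interval 0.35 to 0.65, adjusted p = 0.00111). The arrays of the genotypes did not overlap in either, neither reached 1.5-fold, and the brighter did not pass the adjusted p. Scaled on reference genes, the brighter was at 0.0085 (adjusted p = 0.879). It passed the adjusted p of limma with a trended and robust prior (0.00317) and with dimmer probe sets left out (0.0160). Without single arrays its adjusted p lay between 0.0665 and 0.168, and its false discovery rate by SAM was 0.299. The 2 intervals do not meet, so the 2 probe sets of Ptger4 do not give a single value for the gene.

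The 2 receptors are also described by their ratio within each array, which no shift of a whole array can change. Since neither gene overlapped between genotypes and the signs of their differences were opposite, the ratios had to separate as well, and no test is given. Log2 Ptger4 (1421073_a_at) minus log2 Ptger2 lay between -2.33 and -2.10 in WT and between -1.21 and -0.98 in HDAC11-/- Tregs, a change of 1.17. With the brighter probe set of Ptger4 it lay between 1.47 and 1.56 in WT and between 2.26 and 2.35 in HDAC11-/- Tregs, a change of 0.79. Only the changes can be read, since the 2 genes have different probes.

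Ptger3, which encodes EP3, was at or near background throughout. Its probe set 1450344_a_at was at 4.42, 4.33 and 4.26 in WT, under the bacterial controls on all 3 arrays, and at 5.26, 5.21 and 5.27 in HDAC11-/- Tregs, above them on 2 of 3 arrays. It was called higher (adjusted p = 6.96e-05 from limma), but its HDAC11-/- mean of 5.25 was not above the background level of the WT arrays, so no size of the difference is given. The other probe set, 1425251_at, was at background on all 6 arrays, from 3.02 to 3.34. The study shows Ptger3 among its selected genes from these arrays, so its direction is not independent evidence.

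Pde4b, a cAMP phosphodiesterase of lymphocytes, was higher in both of its probe sets by the adjusted p and called in neither. Probe set 1422474_at was at 8.98, 8.96 and 9.07 in WT and at 9.40, 9.42 and 9.49 in HDAC11-/- Tregs, a 1.35-fold difference (log2 fold change 0.43, SE 0.05, 95% interval 0.31 to 0.56, adjusted p = 0.000957 from limma). Probe set 1422473_at was at 8.65, 8.69 and 8.60 in WT and at 8.84, 8.88 and 8.81 in HDAC11-/- Tregs, a 1.15-fold difference (log2 fold change 0.20, adjusted p = 0.0144). No HDAC11-/- array overlapped a WT array in either. The smaller difference had an adjusted p of 0.0589 without HDAC11-/- replicate 2 and of 0.172 when the arrays were scaled on reference genes. Its false discovery rate by SAM was 0.117, against 0.00121 for 1422474_at.

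Crem was called higher by its brightest probe set. In 1449037_at it was at 7.51, 7.21 and 7.28 in WT and at 8.07, 8.16 and 8.07 in HDAC11-/- Tregs. WT replicate 1 was the highest of its group, and every HDAC11-/- array was above it. The difference was 1.70-fold (log2 fold change 0.77, SE 0.08, 95% interval 0.56 to 0.97, adjusted p = 0.000662 from limma), and the log2 fold change stayed between 0.70 and 0.86 when each array was left out in turn. In 1418322_at Crem was at 6.82, 6.85 and 6.58 in WT and at 7.22, 6.96 and 7.11 in HDAC11-/- Tregs (log2 fold change 0.35, SE 0.10, adjusted p = 0.0247), under the fold threshold. Its adjusted p was 0.0518 without WT replicate 3, and 0.0769 and 0.0710 without HDAC11-/- replicates 1 and 3. The third probe set, 1430598_at, was at background on all 6 arrays. The sources used here do not say which Crem transcripts, ICER among them, each probe set detects.

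The small differences above depend on the scale of the arrays, and the calls of Ptger2 and Crem less so. Scaling on 12 reference genes moved every log2 fold change by -0.11 and scaling on 27 bacterial controls by 0.02. Under both, Ptger2 remained called lower (-0.78 and -0.64), and Crem 1449037_at remained called higher (0.65 and 0.79). The bacterial controls also define background here, so all 27 lie at or under it, and their small shift could hardly change a call. Scaling on the 3 cre control probe sets moved every value by 0.48, so that 7310 probe sets of the array were called higher and 331 lower. On that scale Ptger2 was at -0.18 and no longer called, Nt5e and Entpd1 turned positive, at 0.27 for Nt5e and 0.44 and 0.27 for Entpd1, and both probe sets of Ptger4 and Pde4b were called higher. The cre probe sets themselves read lower on the HDAC11-/- arrays on average, by the same 0.48. HDAC11-/- cells carry Cre, and whether the cre probe sets are a fit standard here was not tested.

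**Figure D2:**
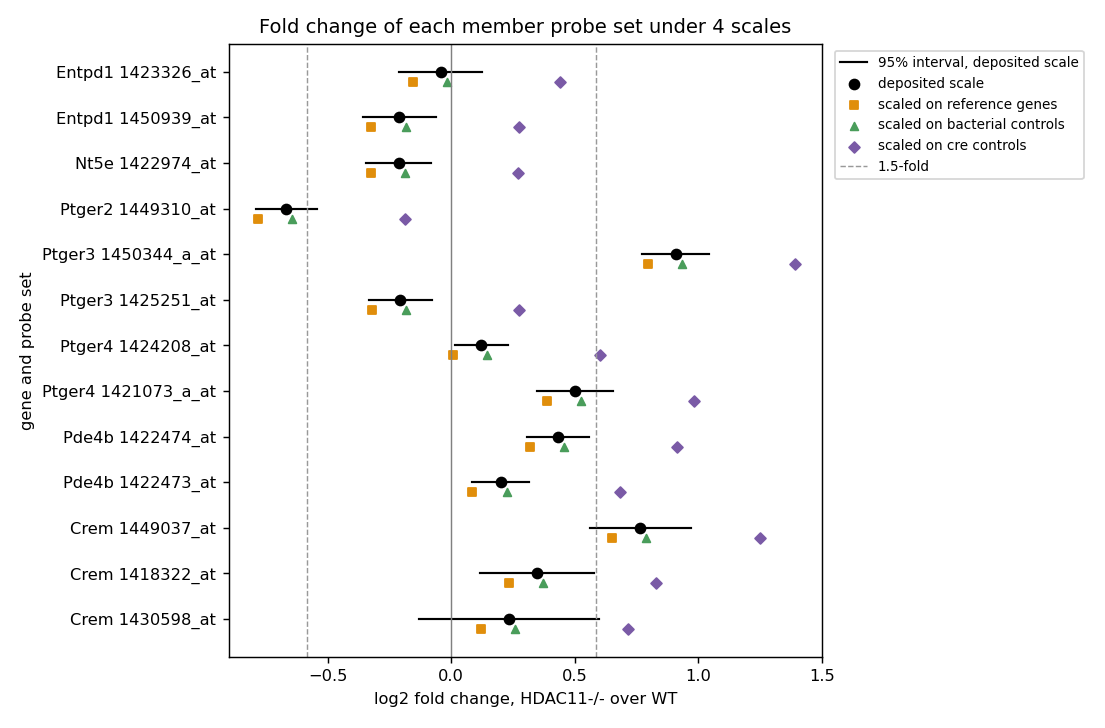
Log2 fold change, HDAC11-/- over WT, of the 13 probe sets on the deposited scale (black points, with 95% intervals from limma, 3 arrays per genotype) and after scaling on reference genes (squares), bacterial controls (triangles) or cre controls (diamonds). Dashed lines mark 1.5-fold. Ptger2, at -0.67, lies left of 0 on all 4 scales, Crem 1449037_at, at 0.77, lies right of the 1.5-fold line on all 4, and Nt5e and both probe sets of Entpd1 cross 0 on the cre scale, while both Ptger3 points and Crem 1430598_at come from signals at or near background and give no size.

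The wider pathway was read from 106 other genes listed by role, of which 79 were measured. By their brightest probe sets 10 were called higher, against 3.46% of all genes, and 3 lower, against 3.72%. The median log2 fold change was -0.05, against -0.04 over all genes. By the adjusted p alone 21 were higher and 18 lower, against 22.9% and 23.2% of all genes. In purine handling 1 of 11 was called, Adk, adenosine kinase, which removes adenosine by turning it into AMP inside the cell. Adk was at 9.69, 9.88 and 9.51 in WT and at 10.53, 10.51 and 10.57 in HDAC11-/- Tregs, a log2 difference of 0.84 (SE 0.09, adjusted p = 0.000673 from limma). Its probe set is of a kind that can bind related transcripts, but 1416319_at, which is not, gave 0.82. The other 2 were 1421767_at, above background on some arrays, at -0.22 (adjusted p = 0.129), and 1449641_at, at background on all 6. Of 14 prostaglandin genes 1 was called, Hpgd, which degrades prostaglandin E2. It was higher (0.70) but lay at background on all 6 arrays.

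None of 11 G protein and adenylyl cyclase genes was called by its brightest probe set. By limma 4 of them had an adjusted p under 0.05, 2 in each direction, against 22.9% higher and 23.2% lower of all genes. Of 10 other phosphodiesterase genes 2 were called lower and none higher, against 3.72% and 3.46% of all genes. The median over the 10 was -0.23. By the adjusted p alone 6 were lower and 1 higher, against 23.2% and 22.9% of all genes. Of these 6, Pde3a and Pde1c lay at background on all 6 arrays. Pde1b, a calcium-regulated phosphodiesterase, was at 9.48, 9.60 and 9.64 in WT and at 8.66, 8.57 and 8.77 in HDAC11-/- Tregs, a log2 difference of -0.91 (SE 0.07, adjusted p = 0.000175). Pde7a, a cAMP-specific phosphodiesterase of T cells, was at 8.39, 8.44 and 8.38 in WT and at 7.53, 7.56 and 7.44 in HDAC11-/- Tregs, a log2 difference of -0.90 (SE 0.05, adjusted p = 4.87e-05). A second probe set of Pde7a was also called, at -0.90, and the other 2 were at -0.30 and -0.09. Both Pde1b and Pde7a lost their calls on the cre scale, at -0.42 and -0.41.

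Among 14 genes of protein kinase A, the cAMP sensor Epac and anchoring proteins, Akap9, which holds kinase A at the Golgi and centrosome, was called lower. Its arrays were widely spread, from 6.64 to 7.98 in WT and from 5.62 to 6.58 in HDAC11-/- Tregs. The adjusted p of 0.0478 from limma rose past 0.05 without WT replicate 1 (0.0944) or 2 (0.0920) or HDAC11-/- replicate 2 (0.0970) or 3 (0.133). Another Akap9 probe set, 1455151_at, was also called lower, at -1.16 (adjusted p = 0.0349 from limma). It lay at background on all HDAC11-/- arrays. Of 5 genes of the CREB family and its coactivators, Creb1 was called higher, at a log2 difference of 0.61 (SE 0.06, adjusted p = 0.000434). Creb1 lay between 7.29 and 7.47 in WT and at 7.96 or higher on every HDAC11-/- array. It lost the call at 0.57 without WT replicate 3 and at 0.50 on the reference gene scale, and its 3 other probe sets were at 0.31, -0.17 and -0.14.

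Of 14 genes that cAMP and CREB are known to induce, 7 were called higher and none lower, against 3.46% and 3.72% of all genes. The median log2 difference of the 14 was 1.02, against -0.04 over all genes. By the adjusted p of limma alone 9 were higher and 1 lower, against 22.9% and 23.2% of all genes. The called genes included Fos at 5.65, Dusp1 at 2.57, Junb at 2.39 and Nr4a1 at 1.83. Dusp1 encodes a phosphatase of MAP kinases, Nr4a1 an orphan nuclear receptor, and Fos and Junb are subunits of AP-1. Rgs2, which limits G protein signalling, was at 2.56 and was called in both of its probe sets. T cell receptor signals and cell handling induce these genes as well, and which stimulus moved them was not tested. The study selected Fos, Junb and Nr4a2 on these arrays, and the list itself was chosen with earlier results of these data known. Neither the direction of this list nor its share of called genes is therefore independent evidence. For Fos and Junb the paper also reports higher expression in HDAC11-/- Tregs by qPCR. It names no other gene of this list in that assay. Of the 7 uncalled genes, 4 lay at background in both genotypes. Nr4a3 was the 1 gene lower by the adjusted p, at -0.25 (adjusted p = 0.0423 from limma), above background on all arrays.

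**Figure D3:**
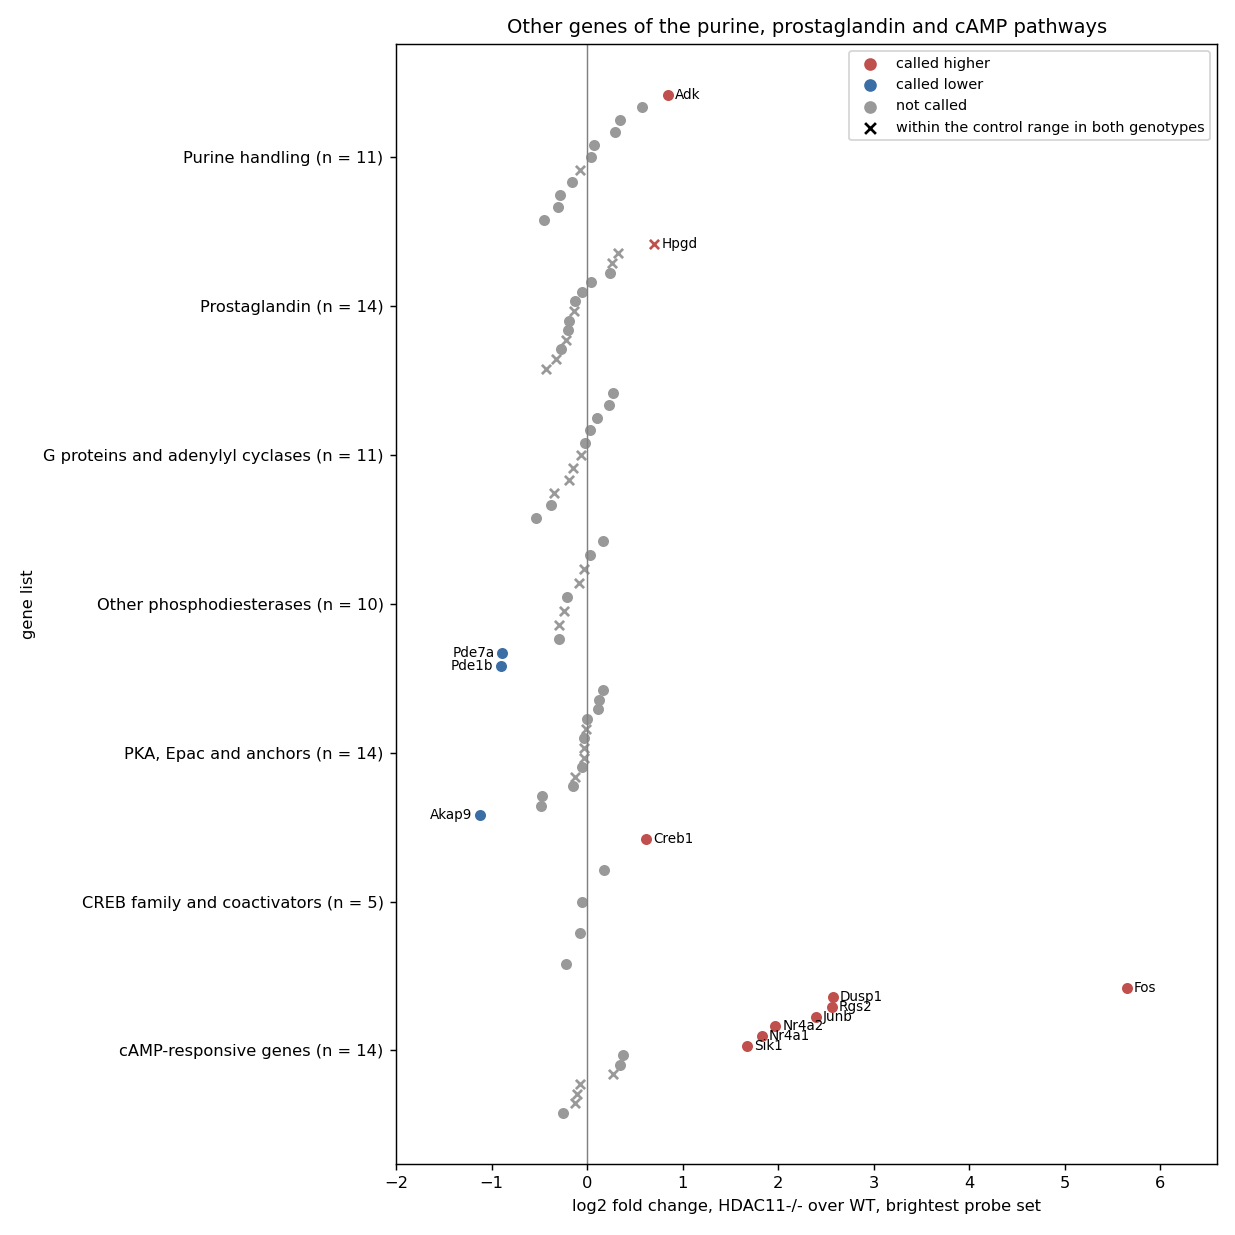
Log2 fold change, HDAC11-/- over WT (3 arrays per genotype), of the 79 measured genes of the wider pathway by their brightest probe sets, 1 point a gene, grouped by list with n measured genes. Red points were called higher, blue points lower and grey points not, and crosses lay at background in both genotypes. In the cAMP-responsive list 7 of 14 were called (up to Fos at 5.65), while Pde1b and Pde7a lie near -0.9. The lists were chosen with earlier results of these data known, so this share is not independent evidence.

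Dimmer probe sets added calls in 7 more genes, which were named after their values were seen. Gnai3 and Pkig were called higher, and Adcy7, Dpp4, Gnas, Pde8a and Prkacb lower, by a probe set that was not the brightest. The probe set of Pde8a lay at background on all 6 arrays, and those of Gnai3 and Pkig on all WT arrays. Gnas, the stimulatory G protein through which EP2 and EP4 act, was at 0.03 in its brightest probe set and at -1.81 in another. Prkacb, a catalytic subunit of protein kinase A, was at -0.05 in the brightest and at -0.98 in another. Adcy7, an adenylyl cyclase of immune cells, was at -0.54, -0.40 and -0.66 in its 3 probe sets, of which the dimmest was called.

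Markers of other cells that a bead separation can carry along moved with genotype beside these genes, and fewer cells of a type cannot be told apart from less RNA per cell. For the counts that follow, 3.46% of all genes were called higher and 3.72% lower, or 22.9% and 23.2% by the adjusted p alone. Of 10 B cell genes, 6 were called lower, such as Blk at -2.48 and Ms4a1 at -1.84. The summed level of the 10 was 10.88 to 10.92 in WT and 9.81 to 9.87 in HDAC11-/- Tregs on the log2 scale. The defining B cell factors Pax5 and Ebf1 were at background on all arrays. Of 7 dendritic cell genes, 3 were called lower, namely H2-Aa, H2-Ab1 and Cd74, the MHC class II and invariant chain genes that B cells share. The summed level of the 7 was 12.23 to 12.27 in WT and 11.07 to 11.09 in HDAC11-/- Tregs. Itgax (-0.39) and Zbtb46 (-0.26) were also lower by the adjusted p, which made 5 lower and none higher. Of 9 CD8 T and NK cell genes, 3 were called lower, namely Fcer1g, Gzma and Ncr1. The summed level of the 9 was 11.30 to 11.32 in WT and 10.85 to 10.95 in HDAC11-/- Tregs. By the adjusted p of limma alone 5 were lower and 1 higher, Cd8b1 at 0.42. Cd8a, at or near background, was at -0.04 and Nkg7 at 0.0019. Of 11 macrophage and monocyte genes, 5 were called higher and none lower, and the summed level was 8.38 to 8.51 in WT and 8.81 to 8.95, with 8 of the 11 at background in WT. At background in both genotypes were 5 genes, of which C1qb and Mrc1 were called higher and Itgam, Adgre1 and Cd14 were not called. By the brightest probe sets and limma, none of 9 T and Treg cell genes and none of 5 naive T cell genes was called. Summed levels of the first list were 14.89 to 14.93 in WT and 14.98 to 15.02 in HDAC11-/- Tregs. Some passed the adjusted p alone, in the first list Ctla4 higher (0.50) and Cd4 (-0.32) and Ikzf2 (-0.35) lower. In the naive list Il7r was lower (-0.44) and Igfbp4 higher (0.17), and a dimmer probe set called 1 gene lower. CD39, CD73 and the EP receptors are found on several of these cell types, and the part of other cells in the values of Entpd1, Nt5e, Ptger2 and Ptger4 was not tested.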

How the data were processed

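RNA of 6 samples was amplified, labelled with biotin and hybridised by the authors, who normalized the arrays by RMA in MAYDAY 2.12. They deposited log2 values, 1 per probe set and array, which were used without further normalization. Which version of the probe definitions they used is not stated. Of 22671 probe sets, 45 controls were left out, and 20380 of the others had 1 gene symbol, 691 several and 1555 none here. Genotype was the only term in lmFit and eBayes of limma 3.58.1 (R 4.3.3), with Benjamini-Hochberg adjustment over all 22626 probe sets. Calls needed an adjusted p under 0.05 and 1.5-fold, the thresholds of the methods. For other genes the probe set of highest mean was taken. Members and lists were chosen with earlier results of these data known. All members were named, and of each wider list up to 4 called genes in each direction with the smallest adjusted p, or all where few were called. Rgs2 and the genes called by dimmer probe sets were named after their values were seen.

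On simulated arrays of this comparison (22626 probe sets) limma found 47 of the 50 that were changed 2-fold, and called 3 of 22426 unchanged ones. No member reached 2-fold, so this recovery does not speak to differences of their size. The simulation changed far fewer probe sets than passed the adjusted p here. The number of arrays limits the precision. Figures were drawn with matplotlib 3.10.9. The alternatives were SAM with all 20 labelings, other priors, array weights, scales, thresholds and filters, a replicate block and leaving out arrays. Promoter windows came from RefSeq, GRCm38.p6.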

Additional observations from a re-analysis of the deposited data

How the results depend on the processing

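The calls of Ptger2 and Crem were kept under SAM, a trended and robust prior, weighted arrays, both scales other than cre, and without each array in turn. Over all these settings the members gave 2 probe sets called higher and 1 lower. On the cre scale they gave 8 and 0, and with the dimmer probe sets left out, which removes both of Ptger3, 1 and 1. With no fold threshold the counts were 6 and 4, and with a 2-fold threshold 0 and 0. In the wider pathway, 10 higher and 3 lower genes became 27 and 0 on the cre scale and 9 and 6 on the reference gene scale. They became 21 and 18 with no fold threshold, 7 and 1 with 2-fold, and 12 and 8 by any probe set of a gene. Directions reversed on the cre scale for Entpd1 (0.44 and 0.27), Nt5e (0.27) and the background probe set of Ptger3 (0.28), and for the brighter Entpd1 probe set without WT replicate 3 (0.012, with a range of -0.11 to 0.012 over the arrays left out). Whether cre, bacterial or reference scaling is the fitter one was not tested. The alternatives for single genes of the wider pathway were chosen after seeing the data. Of 178 member values under alternatives, 166 kept direction and side of the threshold. Deviations of same-numbered arrays correlated at 0.23, -0.02 and 0.16, and those of differently numbered arrays at -0.21 to 0.06. Whether the replicate numbers pair the arrays was not tested further. A replicate block gave 2 member probe sets higher and 1 lower.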
